A study of Danio rerio with 10 samples.

Results

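Zebrafish (Danio rerio) embryos of late cleavage were compared with embryos of early cleavage, over the genes that reached a set level in a pair or more of the libraries of either period. Early cleavage was represented by the 1-cell and 4-cell libraries and late cleavage by the 64-cell, 128-cell and 256-cell libraries, which are 5 of the 10 libraries in the series. The others (sperm, oocyte, 16-cell, 1000-cell and sphere) belong to neither period and enter below only as points of reference. No treatment, mutant allele or transgene is named for any library, and the sources used here do not give the strain or the number of embryos behind a library. Each stage has 1 library. The stages of a period therefore served as its replicates, and the error of every comparison holds differences between stages of a period as well as differences between libraries. Whether the stages came from separate clutches is not given, so the p-values measure only the spread between these libraries. Of 32574 genes in the table, 8523 reached 5 RPKM (reads per kilobase of gene, relative to the total reads of the library) in at least 2 of the 5 libraries and were tested.

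A zebrafish egg is loaded with maternal mRNA, and the embryo runs its first cell cycles on that store, fast and in near synchrony, while its own genome is largely silent. Transcription from the embryonic genome begins in earnest at the mid-blastula transition, near the end of the cleavage series. Before then the pool of mRNA is shaped by clearance of maternal messages and by changes in the length of their poly(A) tails, and RNA-binding proteins and deadenylases are known regulators of both. The early cell cycles are short, consist mostly of DNA replication and mitosis, and draw on maternal stores of cyclins, replication factors and histones.

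The 5 libraries had been scaled to between 37762530 (1-cell) and 113972796 (4-cell) reads, as recovered from the values themselves, and 92.0% to 93.8% of these reads lay in genes. At the depth of the 1-cell library, 3 reads of a gene 1 kilobase long come to 0.0794 RPKM. The number of genes at 5 RPKM or more was 5109 and 6372 in the 1- and 4-cell libraries and 8020, 8385 and 8578 in the 64-, 128- and 256-cell libraries. The 100 most abundant genes took 36.3% and 31.5% of the summed RPKM in early cleavage and 26.3%, 20.1% and 18.8% in late cleavage. The early libraries were thus the more concentrated, and the 1-cell library was also the shallowest. RPKM is relative to the library, so a gene can be higher because others are lower.

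Most tested genes stood higher in late cleavage on the RPKM scale. Of 8523 genes, 4360 were higher (51.2%) and 1148 lower (13.5%) at an adjusted p under 0.05 (limma on log2(RPKM + 1), two-sided, Benjamini-Hochberg over all tested genes). The median log2 difference, late minus early, was 0.92 over all tested genes. Among called genes the median was 1.81 for the higher and -1.04 for the lower. A change of 4-fold or more was met by 1735 of the higher and 152 of the lower genes, and one of 16-fold or more by 9 and 15. Without regard to the test, every late library lay above both early libraries in 5326 genes (62.5%) and below both in 1756 (20.6%), and the groups did not overlap in 5507 of the 5508 called genes.

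These directions rest on the scale. When each library was rescaled by the median of its gene ratios, the median log2 difference moved by -0.91 to 0.01, and 2570 genes were called higher (30.2%) and 2659 lower (31.2%). The share of higher genes among called genes was 79.2% on RPKM and 49.2% after rescaling. Rescaling by a median ratio centres the differences, so a near-even split after it was largely set in advance. The factors were taken over the tested genes, so the filter on low values, described below, bears on them too. All 2570 genes higher after rescaling were also higher on RPKM, all 1148 genes lower on RPKM were lower after rescaling, and no gene was called in opposite directions. A common downward shift makes such nesting likely, so it is no separate check. A further 1790 genes were higher on RPKM only, and 1511 were lower after rescaling only. Differences below are on the RPKM scale and are to be read beside the median of 0.92, and a gene whose call was not kept after rescaling is marked as such.

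**Figure D1:**
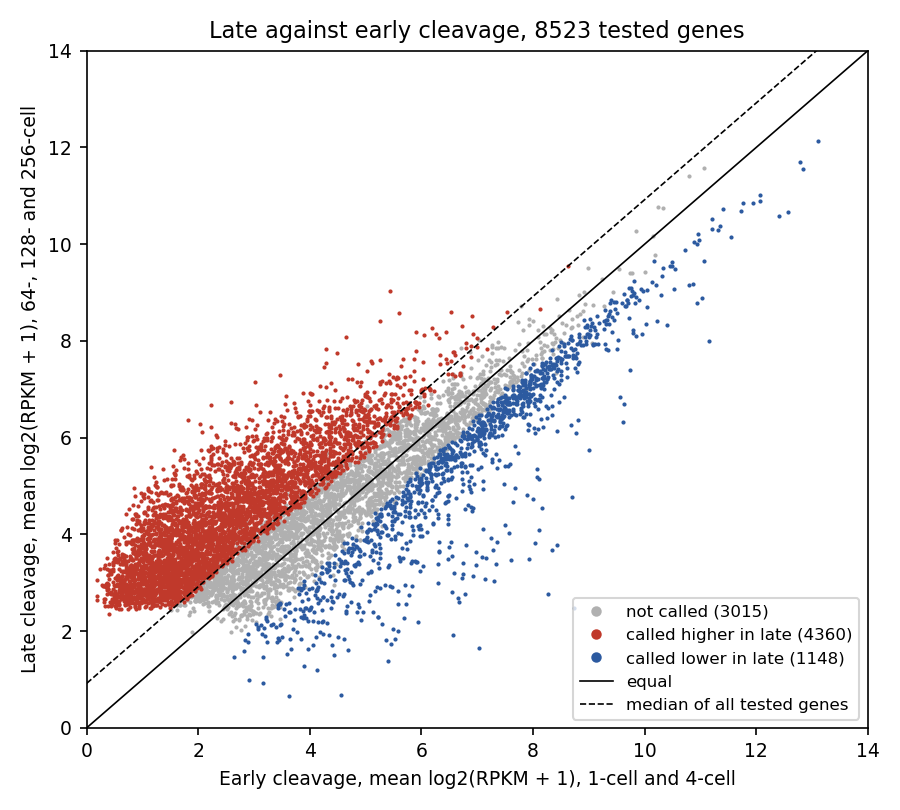
Mean log2(RPKM + 1) of each tested gene in the 2 early cleavage libraries (horizontal axis) against the 3 late cleavage libraries (vertical axis), coloured by the limma call. The 4360 genes called higher lie mostly at low early values and the 1148 called lower at high ones.

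The filter on low values bears on the count of higher genes. A total of 2091 genes passed it through late libraries alone, so they had to be higher, and 1948 of them were called higher and 0 lower. Another 99 passed through early libraries alone, so they had to be lower, and 75 of them were called lower. Any tested gene named below with both early values under 5 RPKM passed through late libraries alone, whether or not the text says so. Any with every late value under 5 RPKM likewise passed through early libraries alone. Among the 4692 genes at 5 RPKM or more in each of the 5 libraries, 1259 were higher (26.8%) and 1007 lower (21.5%). Calls that were kept with each of the 5 libraries left out in turn numbered 3012 higher and 640 lower. Leaving out the 128-cell library gave 726 lower genes, the lowest count, and leaving out the 4-cell library gave 1390, the highest.

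The largest rises were in genes with low RPKM in the 1-cell library. CDK9, the kinase that releases paused RNA polymerase II, stood at 0.535 and 7.01 RPKM in the 1- and 4-cell libraries and at 61.6, 83.8 and 106 RPKM in the 64-, 128- and 256-cell libraries, a 23.6-fold rise in the geometric means of RPKM + 1 (log2 difference 4.56, SE 0.63, limma adjusted p = 0.00412). CTCF, the zinc finger protein that organises chromatin loops, measured 0.889 and 10.7 RPKM early and 75.5, 107 and 127 RPKM late (log2 difference 4.44, SE 0.68). DKC1, the pseudouridine synthase of small nucleolar RNPs, went from 2.37 and 18.7 RPKM to 107, 149.9 and 173 RPKM (4.12, SE 0.65). All 3 climbed at each of the 5 stages, with the 4-cell value already well above the 1-cell value. The others among the 10 largest rises of genes with a symbol of their own were hdgfl2, arhgef18a, pprc1 (a transcriptional coactivator), setx (an RNA-DNA helicase), mctp2b and RIOK1 (a kinase of small ribosomal subunit maturation), beside 1 gene known by a clone name, with log2 differences between 3.92 (RIOK1) and 4.25 (hdgfl2). Of the 10, hdgfl2, pprc1, setx and RIOK1 passed the filter on low values through late libraries alone. In oocytes the same 10 genes lay between 0.246 RPKM (arhgef18a) and 3.08 RPKM (DKC1).

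The largest falls were in abundant messages of the egg, several of them mitotic. BUB3, of the spindle assembly checkpoint, stood at 484 and 378 RPKM early and at 8.74, 3.85 and 2.604 RPKM late, a 77.3-fold fall in the geometric means of RPKM + 1 (log2 difference -6.27, SE 0.42, limma adjusted p = 0.00408). Its 4-cell value was still close to the 1-cell value, and the 16-cell library, which was not in the fit, held 65.9 RPKM. Cenpe, a kinetochore motor, went from 180.5 and 135 RPKM to 14.7, 7.56 and 3.03 RPKM (log2 difference -4.27). Tacc3, a spindle protein, measured 667 and 177 RPKM early and 13.7, 12.5 and 12.3 RPKM late (-4.64, SE 0.49). ZAR1L, an egg RNA-binding protein, had 609 and 169.8 RPKM early and 13.8, 9.597 and 12.6 RPKM late (-4.65, SE 0.49), and was down already in the 4-cell library. TOP2A, the topoisomerase of replicating and mitotic chromosomes, had 287 and 129.7 RPKM early and 16.5, 9.81 and 6.34 RPKM late (-4.12). The remaining members of the 10 largest falls were zgc:153345, si:ch211-241j12.3, PEF1, zgc:114123 and nupr1a, with log2 differences from -4.22 (nupr1a) to -5.49 (zgc:153345). Of the 10, si:ch211-241j12.3 and PEF1 passed the filter through early libraries alone. The 10 were taken from called genes whose late values all lay below both early values, so that separation was a condition of the choice. Each log2 difference stayed negative without the 1-cell library, which that condition had fixed in advance. Each gene was also called lower after rescaling, which the common downward shift makes likely, so it is no separate check.

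**Figure D2:**
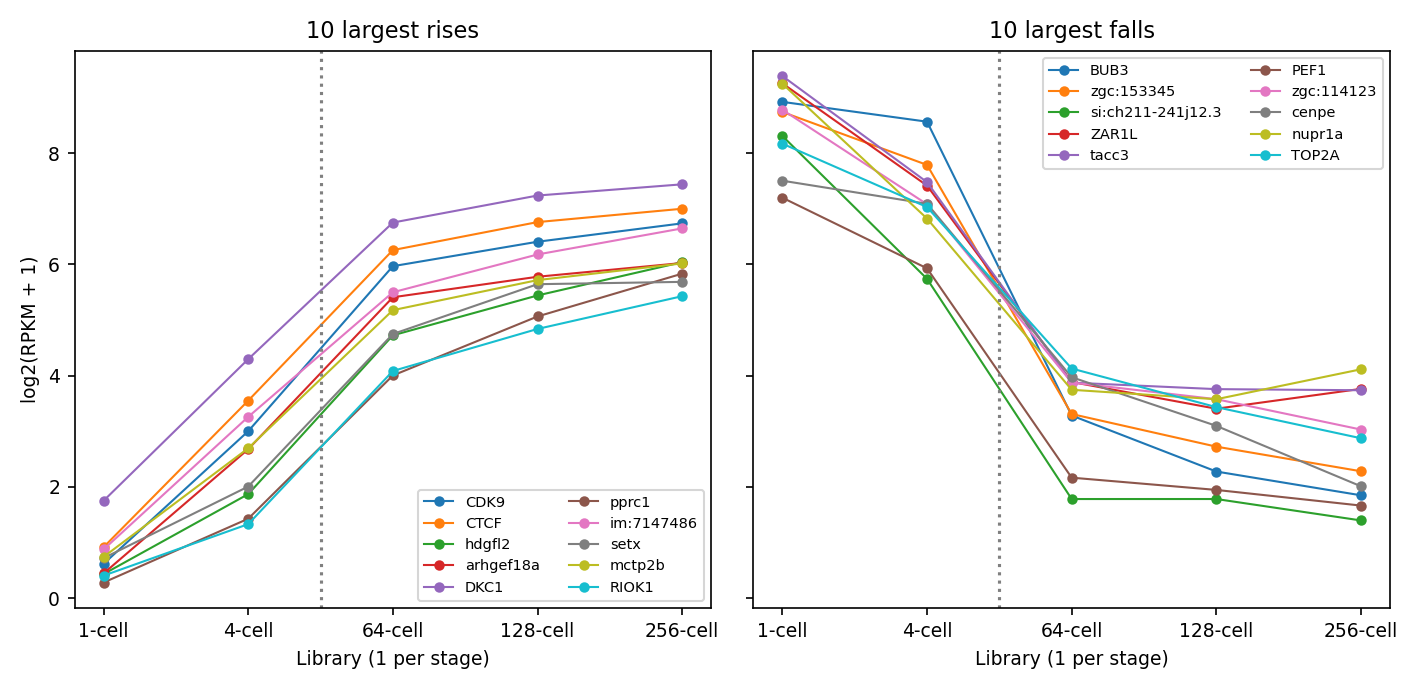
Log2(RPKM + 1) of the 10 genes with the largest rise and the 10 with the largest fall, at each of the 5 stages, 1 point per library. CDK9 runs from 0.535 to 106 RPKM and BUB3 from 484 to 2.604 RPKM.

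The 5 highest moderated t values, which weigh the change against its error, belonged to LTV1, lin37, RBM28, setx and DDX27. All 5 passed the filter on low values through late libraries alone and so had to be higher. LTV1, an assembly factor of the small ribosomal subunit, had 0.575 and 1.47 RPKM early and 17.98, 28.04 and 43.01 RPKM late (log2 difference 3.87, SE 0.44). Lin37, a subunit of a cell cycle repressor complex, had 0.498 and 1.79 RPKM early and 18.9, 23.1 and 40.6 RPKM late (3.73, SE 0.45). RBM28 and DDX27 are nucleolar proteins. The 5 lowest moderated t values belonged to BUB3, zgc:153345, rpain (which carries replication protein A into the nucleus), BIRC5 (survivin, of the chromosomal passenger complex) and PEF1, of which PEF1 passed the filter through early libraries alone. Rpain stood at 700.1 and 374 RPKM early and 60.98, 50.1 and 47.6 RPKM late (-3.26, SE 0.29). BIRC5 went from 411 and 184 RPKM to 18.7, 12.5 and 17.5 RPKM (-4.02, SE 0.37).

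The 2 early libraries were far apart for some called genes. The mitotic kinase MELK had 191 and 9.92 RPKM in the 1- and 4-cell libraries and 2.17, 2.85 and 2.72 RPKM late, so most of its fall preceded the 4-cell library (log2 difference -3.68, SE 1.00, limma adjusted p = 0.0142). The same held for cdca9 (310.5 and 27.2 RPKM early and 4.53, 5.58 and 8.48 RPKM late), a gene of the chromosomal passenger complex. TRDMT1, a tRNA methyltransferase, had 72.1 and 6.59 RPKM early and 0.636, 0.518 and 0.63 RPKM late. MELK and TRDMT1 passed the filter on low values through early libraries alone and so had to be lower. The lipase gene LIPG had 120.3 and 12.7 RPKM early and 5.404, 6.34 and 8.88 RPKM late, and was no longer called when the 1-cell or the 256-cell library was left out. CWC25, a splicing factor, ran the other way, from 0.417 to 21.5 RPKM within early cleavage and 35.7, 47.02 and 54.7 RPKM late, and lost its call after rescaling (adjusted p = 0.055) and without the 256-cell library.

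Across the stages, the difference arose mainly in the steps from the 1-cell to the 4-cell and from the 4-cell to the 64-cell library. In the higher genes the median step was 0.97 on the log2 scale from 1-cell to 4-cell, 1.098 from 4-cell to 64-cell, 0.25 to 128-cell and 0.13 to 256-cell. In the lower genes the steps were -0.33, -0.73, -0.20 and -0.14. The step from 4-cell to 64-cell was the largest of the 4 in 60.5% of the higher and 80.0% of the lower genes, whereas the step from 1-cell to 4-cell was the largest in 38.7% and 15.6%. The steps span unequal numbers of cell divisions, and that from 4-cell to 64-cell spans the most. Their sizes are therefore not rates of change. The 4-cell value had moved from the 1-cell value toward late cleavage in 97.4% of the higher and 79.4% of the lower genes, by a median of 42.1% and 25.6% of the way. Over all tested genes, the 4-cell value lay above the 1-cell value in 75.8%. A rise at every step was found in 2640 of the higher genes (60.6%), against 33.6% of all tested genes. A fall at every step was found in 487 of the lower genes (42.4%), against 7.19% of all tested genes. The shares of called genes use the values that made the calls and are given as a description.

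The embryo libraries outside the comparison did not all follow the order of the stages. Median RPKM of the higher genes was 3.18 in the oocyte, 2.24 and 5.82 in the early libraries, 19.1 in the 16-cell library, 15.1, 18.5 and 20.9 in the late libraries, 23.7 in the 1000-cell library and 21.0 at sphere. For the lower genes the medians were 129.6 in the oocyte, 134.4 and 98.8 early, 52.8 at 16-cell, 54.7, 45.6 and 41.7 late, 37.4 at 1000-cell and 27.7 at sphere. The oocyte was thus close to the early libraries and the 1000-cell library to the late ones, while the 16-cell median lay past that of the 64-cell library in both classes. In sperm, the library that is not of the egg or embryo, the medians were 11.2 RPKM for the higher and 24.5 RPKM for the lower genes. The 16-cell library lay nearer to the late than to the early mean in 93.6% of the higher and 70.0% of the lower genes, the 1000-cell library in 99.98% and 99.3%, and the oocyte in 7.52% and 6.45%. Over all tested genes these shares were 80.1% for the 16-cell library, 92.4% for the 1000-cell library and 16.7% for the oocyte. For the 16-cell library the share of the lower genes was thus below that of all tested genes. Across the tested genes, which are not independent replicates, Pearson's r of log2 values was 0.95 for the 1-cell against the 4-cell library, 0.90 for 4-cell against 64-cell and 0.98 for 64-cell against 128-cell, but 0.64 for 1-cell against 256-cell.

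**Figure D3:**
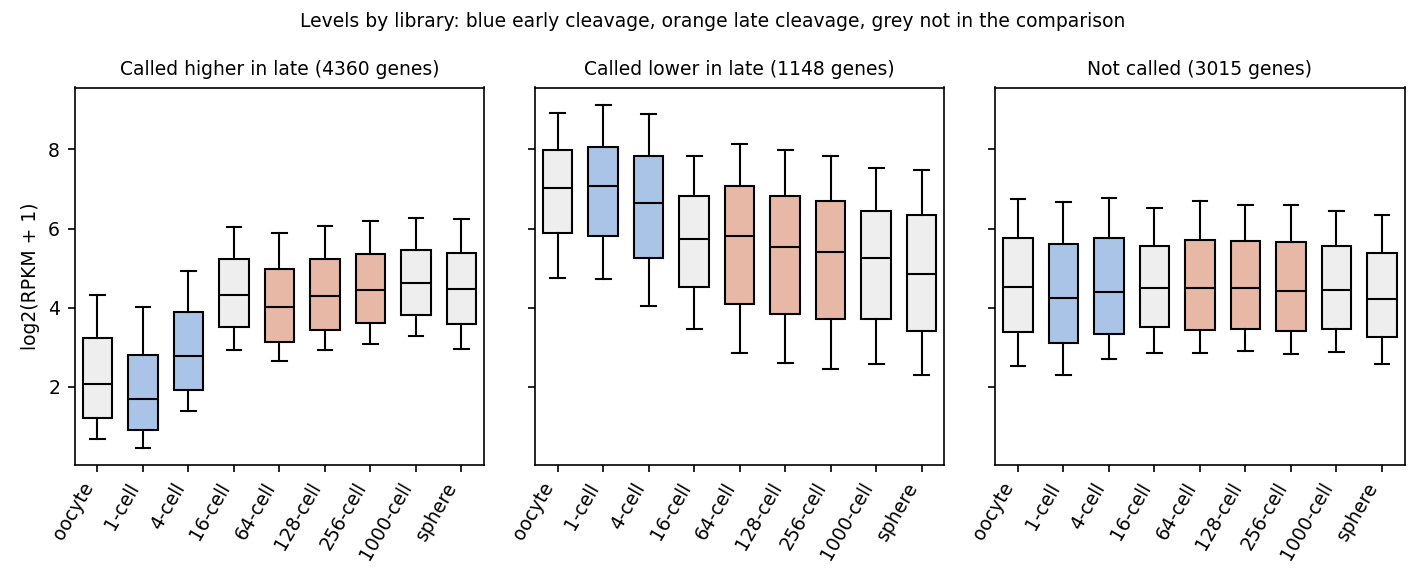
Distribution of log2(RPKM + 1) over 9 libraries from oocyte to sphere for genes called higher, called lower and not called, as boxes (quartiles and median) with whiskers at the 10th and 90th percentiles. The median of the higher genes goes from 2.24 RPKM (1-cell) to 20.9 RPKM (256-cell), and that of the lower genes from 134.4 to 41.7 RPKM.

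Gene groups differed widely in how many of their members were higher or lower. The 32 lists were chosen with earlier results of these data known, some share members, and 25 of them had at least 5 tested members. In bulk RNA of whole embryos, fewer cells of a type and less RNA per cell cannot be told apart. The median of a list is given beside 0.92 for all tested genes, and shares of members called are to be read beside 51.2% higher and 13.5% lower on RPKM, and 30.2% and 31.2% after rescaling. On RPKM the medians of 5 lists lay above that of all genes. These were nucleolus and ribosome biogenesis (2.19), zinc finger genes of the znf and zbtb families (1.74), heat shock proteins and chaperones (1.52), germ plasm and piRNA pathway (1.28) and mRNA-binding, m6A and translational regulators (1.24). At the other end stood the 13 mitochondrially encoded proteins (-1.47) and the cytosolic ribosomal proteins (-0.97).

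**Figure D4:**
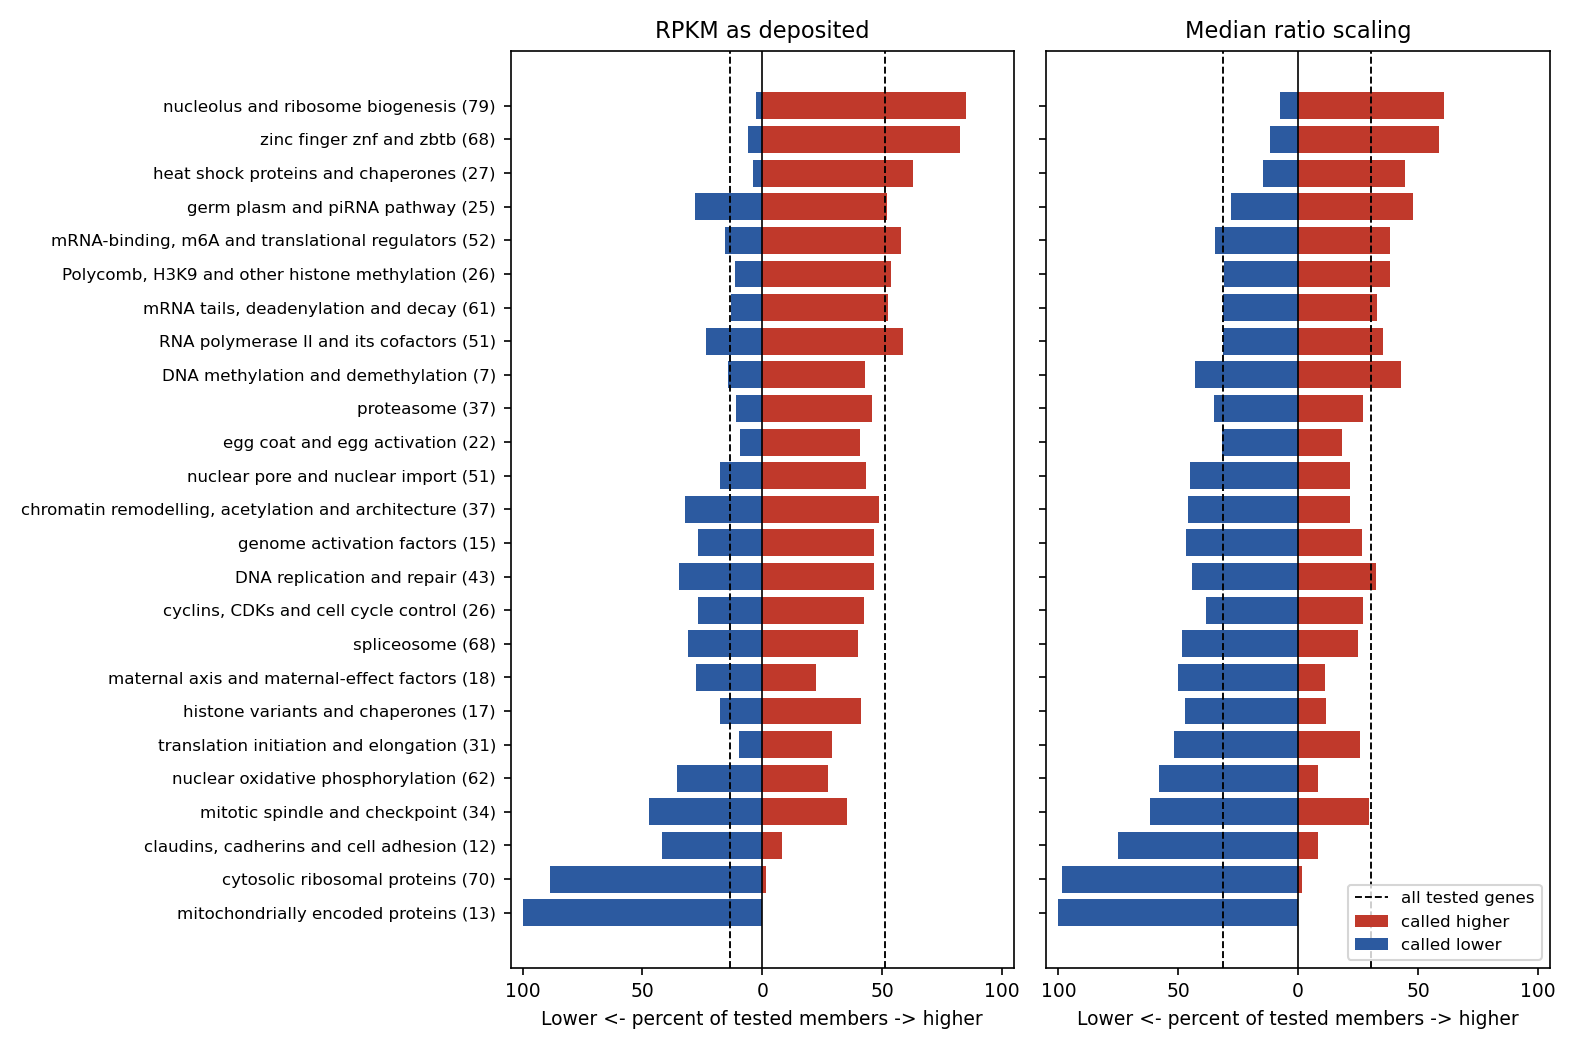
Percent of the tested members of each list called higher or lower in late cleavage, on RPKM and after median ratio scaling, for lists with at least 5 tested members. Dashed lines mark the same share over all tested genes (51.2% and 13.5% on RPKM, 30.2% and 31.2% after scaling).

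Most ribosome assembly factors rose. The nucleolus makes ribosomal RNA and joins it with ribosomal proteins with the help of many assembly factors. Of 89 such genes in the table, 79 were tested, and 67 rose and 2 fell, with a median log2 difference of 2.19. After rescaling 48 rose and 6 fell. Without the 1-cell library the median was 1.68, which lay 1.08 above that of all tested genes. Of the 79, 35 had passed the filter through late libraries alone and so had to differ upward. PUM3, a nucleolar Puf-family protein, had 1.098 and 3.84 RPKM early and 27.9, 47.3 and 69.8 RPKM late (log2 difference 3.86, SE 0.50, limma adjusted p = 0.00412). The RNA helicase gene DDX27 measured 0.444 and 1.87 RPKM early and 17.9, 29.4 and 40.1 RPKM late (3.82, SE 0.46). With DKC1 and LTV1, described above, these had the largest rises of the list, and in each the late values lay several-fold above both early values. The abundant members rose as well, among them nucleolin (ncl), with 23.9 and 92.5 RPKM early and 308, 398 and 454 RPKM late (2.99, SE 0.49), whereas the rise of fibrillarin (FBL), the methyltransferase of rRNA, from 47.1 and 155 RPKM to 264, 278 and 333 RPKM was not called after rescaling. The 2 members that fell were naf1, which assembles H/ACA particles (86.1 and 64.7 RPKM early and 45.4, 41.6 and 38.8 RPKM late, not called without the 128-cell or the 256-cell library), and nol11 (258 and 209.8 RPKM early and 127, 119 and 97.7 RPKM late). Summed over the list's genes, the share of RPKM was 0.263% and 0.385% in the early libraries and 0.701%, 0.888% and 1.08% in the late ones.

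The protein components of the ribosome itself went the other way. Of 70 tested genes with cytosolic ribosomal protein names, 62 fell and 1 rose (69 and 1 after rescaling), with a median log2 difference of -0.97. Without the 1-cell library the median was -0.95, or -1.55 relative to that of all tested genes. The 1 that rose was RPL7L1, a paralog of RPL7 with a known part in ribosome assembly, and rps6kal, a kinase gene caught by its symbol, was not called on RPKM and was lower after rescaling. RPLP0, of the ribosomal stalk, had 180.1 and 167 RPKM early and 91.6, 65.5 and 47.5 RPKM late (log2 difference -1.38, SE 0.29, limma adjusted p = 0.00576). RPL11, of the large subunit, had 354 and 366 RPKM early and 209, 168 and 109 RPKM late (-1.19, SE 0.28). In both genes the 2 early values were alike and the late values declined from the 64-cell to the 256-cell library. Together the list held 3.51% and 3.76% of RPKM in the early and 2.54%, 2.21% and 1.85% in the late libraries. Most assembly factors and most ribosomal proteins thus moved in opposite directions on both scales. For the fall of the ribosomal proteins the second scale is no separate check, since it shifts differences downward. On the other side, 35 of the 79 assembly factors had to differ upward through the filter.

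Messages of the mitochondrial genome fell in all 13 of its protein genes, with a median log2 difference of -1.47. They were also lower in all 13 after rescaling. Without the 1-cell library the median was -0.96, or -1.57 relative to that of all tested genes. MT-CO3, of cytochrome c oxidase, had 9346 and 5741 RPKM early and 3304, 3029 and 2759.8 RPKM late (log2 difference -1.28, SE 0.24, limma adjusted p = 0.00452). MT-ATP6, of the ATP synthase, had 9765 and 3809 RPKM early and 1639, 1489 and 1725 RPKM late (-1.92, SE 0.36). The 1-cell library was the highest in both, the 4-cell library was between, and the late libraries lay close together. MT-CO1, the most abundant of the 5 top genes by mean level, measured 9296 and 5396 RPKM early and 3458, 3675 and 2878 RPKM late (-1.09), and was not called without the 1-cell library, nor were MT-CO2, MT-CYB and mt-atp8. The 13 genes took 11.2% and 5.58% of RPKM in the early libraries and 3.42%, 3.49% and 3.74% in the late ones.

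Nuclear genes of oxidative phosphorylation were split, with 17 of 62 tested members higher and 22 lower (5 and 36 after rescaling) and a median of -0.25. Of the 62, 2 had passed the filter through late libraries alone, UQCRC2 among them, and so had to be higher. Another 2 had passed it through early libraries alone, ndufa5 among them, and so had to be lower. Members that rose included UQCRC2, of complex III (2.51 and 4.97 RPKM early and 15.8, 22.4 and 33.6 RPKM late, log2 difference 2.38) and ATP5F1B, the catalytic subunit of the ATP synthase (11.3 and 19.7 RPKM early and 53.7, 78.6 and 101 RPKM late, 2.26). Members that fell included ATP5PO, of the same synthase, with 191 and 164 RPKM early and 47.6, 29.8 and 22.5 RPKM late (-2.44), and ndufa5, of complex I, with 38.03 and 10.51 RPKM early and 2.65, 2.01 and 2.205 RPKM late (-2.69). Subunits of 1 enzyme thus went both ways. The translation factors had 9 of 31 tested members higher and 3 lower (8 and 16 after rescaling), with a median of 0.05. Through late libraries alone, 6 of the 31 had passed the filter, ABCF1 among them, and so had to be higher. ABCF1, an initiation regulator, had the largest rise (0.873 and 3.56 RPKM early and 19.4, 25.4 and 33.3 RPKM late, 3.18), and the lower members were EEF1B2, EIF3M and EEF1G, of which EEF1B2 went from 173 and 187 RPKM to 116, 94.7 and 83.6 RPKM (-0.88). The calls of EIF3M and EEF1G were lost when single libraries were left out, among them the 128-cell library for both.

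**Figure D5:**
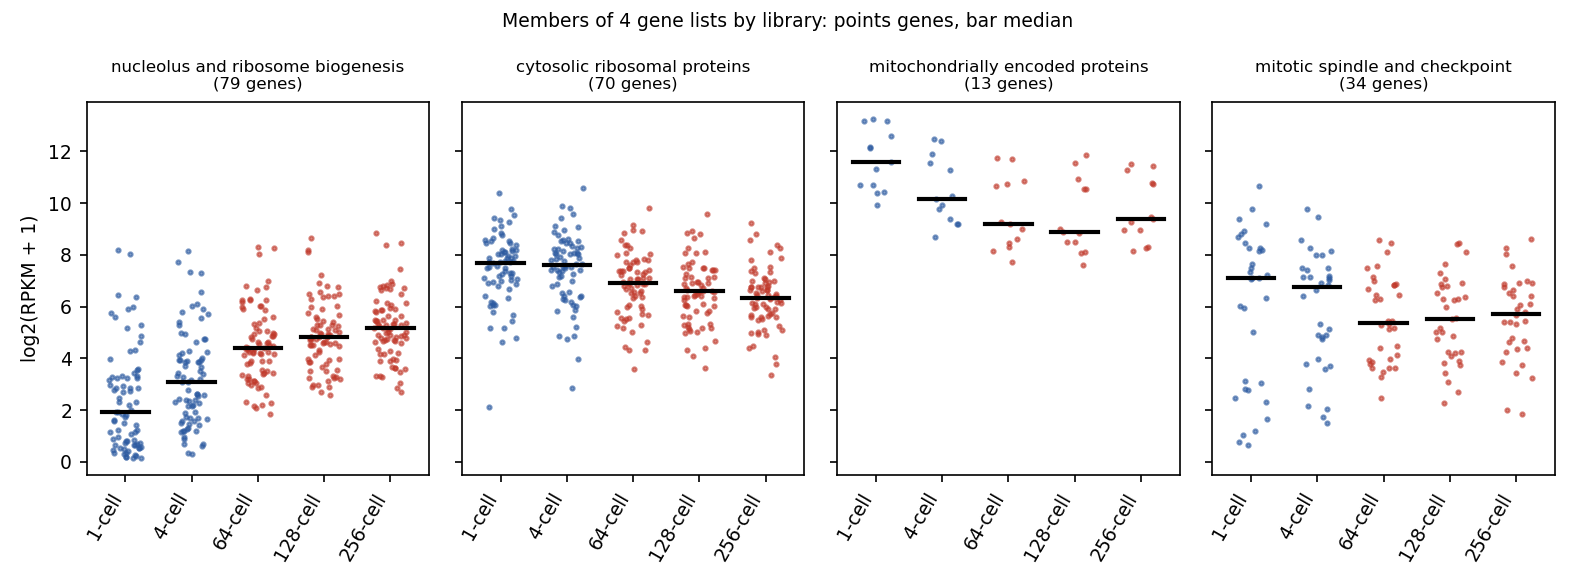
Members of 4 lists (nucleolus and ribosome biogenesis, cytosolic ribosomal proteins, mitochondrially encoded proteins, mitotic spindle and checkpoint) at each of the 5 stages, as log2(RPKM + 1), 1 point per gene with a bar at the median. In the nucleolar list 67 of 79 genes were called higher. Called lower were 62 of 70 ribosomal protein genes and 13 of 13 mitochondrially encoded ones, and the spindle list holds both 12 higher and 16 lower genes.

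Mitotic genes went both ways. Of 34 tested genes of the spindle and its checkpoint, 12 were higher and 16 lower (10 and 21 after rescaling), and the median was -0.27. The filter was passed through late libraries alone by 4 of the 34, CENPI and ZWILCH among them, and these had to be higher. AURKB, the kinase of the chromosomal passenger complex, fell from 878 and 698 RPKM early to 116, 77.2 and 54.3 RPKM late (log2 difference -3.30, SE 0.32, limma adjusted p = 0.00412). Kif11, the motor that separates spindle poles, fell from 353 and 100.2 RPKM to 16.6, 16.1 and 13.5 RPKM (-3.53), and plk1, a central mitotic kinase, from 1621 and 881 RPKM to 379, 341 and 309 RPKM (-1.80). Among the rises, CENPI, a centromere protein, had 0.683 and 2.37 RPKM early and 11.3, 17.5 and 23.9 RPKM late (2.90, SE 0.45). ZWILCH, of the kinetochore, had 1.07 and 1.85 RPKM early and 11.3, 18.02 and 24.2 RPKM late (2.90), and bub1, a checkpoint kinase, 2.15 and 11.004 RPKM early and 42.8, 44.9 and 41.4 RPKM late (2.84). Checkpoint members thus moved in both directions, with BUB3 and MAD2L1 lower and bub1, bub1ba and TTK higher. Summed RPKM of the list was 8035 and 4939 in the early and 2822, 2768 and 2764 in the late libraries.

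Cyclins and their regulators were mixed as well, with 11 of 26 tested members higher and 7 lower (7 and 10 after rescaling) and a median of 0.30. Of the 26, 3 had passed the filter through late libraries alone, pkmyt1 among them, and so had to be higher. Another 2 had passed it through early libraries alone, MELK among them, and so had to be lower. The B-type cyclin CCNB1 stood at 2674 and 2568 RPKM early and 1459, 1370.2 and 1163 RPKM late (log2 difference -0.98, SE 0.18), and CCNB2 at 2590.04 and 2148 RPKM and 1345, 1333 and 1132 RPKM (-0.90), so both remained among the abundant messages. E2F8, a repressor of cell cycle genes, was higher (0.558 and 5.203 RPKM early and 16.3, 23.1 and 25.2 RPKM late, 2.84). So was RB1, the retinoblastoma protein gene (2.86 and 10.9 RPKM early and 29.7, 37.05 and 42.6 RPKM late, 2.45), and pkmyt1, an inhibitory kinase of CDK1 (0.113 and 0.815 RPKM early and 4.15, 5.72 and 9.53 RPKM late, 2.33).

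In DNA replication and repair, 20 of 43 tested members were higher and 15 lower (14 and 19 after rescaling), with a median of 0.44. Of the 43, 5 had passed the filter through late libraries alone, CHAF1B among them, and so had to be higher. CHAF1B, of the histone chaperone that follows the fork, had 0.432 and 2.196 RPKM early and 19.6, 30.7 and 45.8 RPKM late (log2 difference 3.87, SE 0.49, limma adjusted p = 0.00412). MCM5, of the replicative helicase, had 1.39 and 8.76 RPKM early and 43.4, 53.5 and 68.8 RPKM late (3.52). Its partner in the active helicase, CDC45, went the other way, from 555 and 309.6 RPKM to 57.6, 24.2 and 12.7 RPKM (-3.93, SE 0.56). GINS2, of the GINS complex that completes that helicase, fell from 427 and 191 RPKM to 30.5, 19.3 and 19.2 RPKM (-3.61), while its complex partners GINS1 (2.42) and GINS3 (2.15) rose. Of the origin recognition complex, ORC3 rose (0.844 and 12.98 RPKM early and 48.2, 53.8 and 62.5 RPKM late, 3.45) and ORC1 fell (363 and 251 RPKM early and 95.99, 80.97 and 75.6 RPKM late, -1.84). Among the subunits of these complexes whose levels are given, those that fell were abundant in early cleavage and those that rose were scarce there. A large fall needs a high early level, and MCM5, ORC3 and ORC1 were chosen after their values were seen, so this is a description.

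The transcription machinery went both ways. Of 51 tested genes of RNA polymerase II and its cofactors, 30 were higher (58.8%) and 12 lower (23.5%), against 51.2% and 13.5% over all tested genes. After rescaling 18 were higher and 16 lower, and the median of 0.88 on RPKM was near that of all genes. Late libraries alone had brought 4 of the 51 through the filter, MED6 among them. Beside CDK9, its cyclin partner CCNT1 rose from 0.27 and 1.07 RPKM to 5.48, 6.31 and 9.03 RPKM (log2 difference 2.27). CCNT1, like MED6, passed the filter through late libraries alone and so had to be higher. The Mediator subunits MED7 (1.01 and 5.18 RPKM early and 28.96, 46.4 and 61.1 RPKM late, 3.66) and MED6 (1.73 and 4.64 RPKM early and 27.3, 36.9 and 51.8 RPKM late, 3.29) rose, as did the Mediator kinase CDK8 (1.78 and 13.8 RPKM early and 64.3, 72.1 and 82.98 RPKM late, 3.52). POLR2D, a polymerase subunit, fell from 287 and 312 RPKM to 139.6, 99.7 and 71.8 RPKM (-1.57, SE 0.29).

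Factors known to help activate the zebrafish genome showed no common direction, with 7 of 15 tested members higher and 4 lower (4 and 7 after rescaling) and a median of 0.53. Sox19b, a maternal SoxB1 factor, rose from 18.5 and 73.8 RPKM to 303, 361 and 356 RPKM (log2 difference 3.15, SE 0.49, limma adjusted p = 0.00412). Pou5f3 was at 245 and 315 RPKM early and 393, 400.4 and 412 RPKM late (0.53), a call that was lost without any library other than the 4-cell one and after rescaling, where the difference was -0.47. Nanog, the other of the 3 best known such factors, was not called, with 887 and 1456 RPKM early and 1175, 1217 and 1080.3 RPKM late (log2 difference 0.02, SE 0.24), but was called lower after rescaling (log2 difference -0.98, limma adjusted p = 0.0482). Foxh1, which works with Nodal signals, rose from 5.03 and 20.7 RPKM to 43.8, 53.7 and 57.98 RPKM (2.20), and hmga1a, a chromatin protein, fell from 828 and 603 RPKM to 389.5, 394 and 428 RPKM (-0.81). The zinc finger genes of the znf and zbtb families rose in 56 of 68 tested members and fell in 4 (40 and 8 after rescaling), with a median of 1.74. Without the 1-cell library the median was 1.27, which lay 0.67 above that of all tested genes. Of the 68 zinc finger genes, 31 had passed the filter through late libraries alone. Znf1035 led them with 0.706 and 5.16 RPKM early and 30.7, 54.4 and 64.96 RPKM late (3.91), and znf451 fell most, from 39.7 and 29.3 RPKM to 11.1, 11.1 and 8.14 RPKM (-1.67).

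Chromatin genes went both ways. In the list of Polycomb, H3K9 and other histone methylation, 14 of 26 tested members rose and 3 fell (10 and 8 after rescaling), with a median of 0.91. Late libraries alone had brought 7 of the 26 through the filter, and these had to differ upward. EZH2, the H3K27 methyltransferase, rose from 1.61 and 7.62 RPKM to 19.7, 26.4 and 32.8 RPKM (log2 difference 2.50, SE 0.52), and phc2a, of Polycomb complex 1, from 4.03 and 12.3 RPKM to 48.6, 66.5 and 83.1 RPKM. The 3 that fell were setdb1a, an H3K9 methyltransferase (79.8 and 54.4 RPKM early and 20.6, 18.7 and 19.4 RPKM late, -1.70), DPY30 (-0.89) and ASH2L (-0.81), both core subunits of H3K4 methyltransferases, and ASH2L was not called without the 128-cell library. Among remodelling, acetylation and architecture genes, 18 of 37 tested members rose and 12 fell (8 and 17 after rescaling), with a median of 0.69. CHD8, a remodeller, rose from 2.401 and 14.2 RPKM to 54.4, 60.6 and 60.96 RPKM (3.05). RBBP4, a histone-binding subunit shared by several complexes, fell from 575 and 349 RPKM to 122.8, 75.4 and 58.9 RPKM (-2.44), and its relative rbb4l rose from 1.8003 and 5.71 RPKM to 17.03, 23.4 and 30.5 RPKM (2.47).

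DNA methylation genes numbered 7 tested, of which 3 rose and 1 fell, and 3 rose and 3 fell after rescaling. Of the 7, 3 had passed the filter through late libraries alone, dnmt3bb.2 among them, and so had to be higher. DNMT1, the maintenance methyltransferase, was among the abundant messages at 1536 and 1399.98 RPKM early and fell to 768, 555 and 367 RPKM late (log2 difference -1.44, SE 0.30, limma adjusted p = 0.00557). Dnmt3bb.2, a de novo methyltransferase gene, rose from 1.02 and 4.697 RPKM to 12.8, 20.1 and 21.9 RPKM (2.47). Histone variants and chaperones had 7 of 17 tested members higher and 3 lower (2 and 8 after rescaling), with a median of 0.13. The assembly protein gene nap1l4a rose from 4.07 and 9.52 RPKM to 38.5, 61.5 and 94.1 RPKM (3.08), while NASP, a carrier of H3-H4 and H1, fell from 785 and 628 RPKM to 470.2, 428 and 442 RPKM (-0.65), and was not called without the 1-cell or the 128-cell library.

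Regulators of mRNA tails and decay, which set the fate of maternal messages, had 32 of 61 tested members higher and 8 lower (20 and 19 after rescaling), with a median of 0.90, near that of all genes. The filter was passed through late libraries alone by 9 of the 61, DICER1 among them, and through early libraries alone by 1. Tut4, a uridyltransferase that marks RNA for decay, rose from 1.41 and 17.01 RPKM to 62.8, 76.6 and 74.7 RPKM (log2 difference 3.45, SE 0.72, limma adjusted p = 0.00566). LSM14B, of messenger RNP granules, rose from 8.82 and 62.5 RPKM to 238, 285 and 292 RPKM (3.44). CNOT1, the scaffold of the CCR4-NOT deadenylase, rose from 3.36 and 10.49 RPKM to 35.5, 41.5 and 41.3 RPKM (2.51), whereas its catalytic subunit CNOT8 fell from 754 and 559 RPKM to 372, 371 and 356 RPKM (-0.82). PAN2 and PAN3, the subunits of another deadenylase, also parted, with log2 differences of 2.66 and -1.92. DROSHA, the nuclease that begins microRNA processing, fell from 173 and 89.6 RPKM to 10.1, 11.03 and 13.4 RPKM (-3.33, SE 0.33), and DICER1, which completes it, rose from 0.585 and 2.84 RPKM to 11.4, 15.3 and 15.98 RPKM (2.62).

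Among mRNA-binding, m6A and translational regulators, 30 of 52 tested members rose and 8 fell (20 and 18 after rescaling), with a median of 1.24. Late libraries alone had brought 9 of the 52 through the filter, YTHDF2 and RBM15 among them, so these had to differ upward. The m6A reader YTHDF2, known for its part in clearing maternal mRNA, rose from 1.58 and 4.86 RPKM to 20.7, 27.7 and 32.8 RPKM (log2 difference 2.83, SE 0.43), and its relatives YTHDF3 (2.65) and YTHDF1 (2.61) rose too. RBM15, of the m6A writer complex, rose from 0.558 and 4.77 RPKM to 29.6, 36.05 and 37.8 RPKM (3.56), and VIRMA, a scaffold of that complex, fell from 39.2 and 36.9 RPKM to 22.6, 14.8 and 11.2 RPKM (-1.24). IGF2BP3, a stabiliser of maternal mRNA in zebrafish, rose from 2.18 and 7.898 RPKM to 29.99, 40.4 and 61.3 RPKM (3.02). DAZL, a germline translation regulator, fell from 279 and 162 RPKM to 64.5, 44.2 and 43.8 RPKM (-2.07). ZAR1L fell, as given above, while its relative ZAR1 rose from 4.09 and 9.56 RPKM to 26.5, 25.8 and 28.1 RPKM (1.92).

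The germ plasm and piRNA list had 13 of 25 tested members higher and 7 lower (12 and 7 after rescaling), with a median of 1.28. Without the 1-cell library the median was 0.81, which lay 0.20 above that of all tested genes. Of the 25, 3 had passed the filter through late libraries alone, TDRD3 among them, and so had to be higher. Buc, which organises the germ plasm in zebrafish, rose from 10.1 and 33.2 RPKM to 134, 201 and 234 RPKM (log2 difference 3.25, SE 0.46, limma adjusted p = 0.00412). The Tudor genes TDRD3 (1.39 and 4.14 RPKM early and 18.6, 24.1 and 30.5 RPKM late, 2.83) and TDRD6 (3.82 and 14.9 RPKM early and 48.05, 60.7 and 64.5 RPKM late, 2.74) rose, and tdrkh, of the same family, fell from 145 and 98.96 RPKM to 30.005, 19.6 and 16.5 RPKM (-2.43). Both Piwi genes rose, PIWIL1 by 1.99 and PIWIL2 by 2.04 on the log2 scale. Pld6, which acts in piRNA maturation at the mitochondrion, fell from 30.9 and 24.5 RPKM to 11.4, 8.48 and 8.68 RPKM (-1.45).

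Splicing genes went both ways. Of 68 tested members, 27 rose and 21 fell (17 and 33 after rescaling), with a median of 0.29. TRA2A, a regulator of exon choice, rose from 4.09 and 26.2 RPKM to 100.3, 110.3 and 99.1 RPKM (log2 difference 3.15, SE 0.60), and so did the spliceosome proteins CWC27 (from 1.38 and 5.23 RPKM to 25.1, 28.9 and 36.9 RPKM) and CWC22 (log2 difference 2.86). SNRPD2, of the Sm ring, fell from 301 and 224 RPKM to 92.2, 62.4 and 65.6 RPKM (-1.83, SE 0.25), and hnrnpc, an RNA-packaging protein, from 686 and 481 RPKM to 264, 239.7 and 229 RPKM (-1.23).

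Proteasome genes had 17 of 37 tested members higher and 4 lower (10 and 13 after rescaling), with a median of 0.74. The filter was passed through late libraries alone by 6 of the 37, PSMC5 among them. The largest change in that list, PSMC3IP (3.40), belongs to a cofactor of meiotic recombination caught by its symbol. Of the proteasome proper, PSMC5, a base ATPase, rose from 0.68 and 1.48 RPKM to 9.25, 12.3 and 19.4 RPKM (log2 difference 2.79, SE 0.41). The 4 lower members were PSMD14, PSMF1, PSME3 and 1 gene with a shared symbol, and PSMD14, the deubiquitinase of the lid, went from 138 and 116 RPKM to 79.6, 76.1 and 54.7 RPKM (-0.86), while PSMF1 and PSME3 were not called without the 128-cell library, nor PSME3 without the 1-cell library. Heat shock proteins and chaperones rose in 17 of 27 tested members and fell in 1 (12 and 4 after rescaling), with a median of 1.52. Of the 27, 3 had passed the filter through late libraries alone, HSF2 and XBP1 among them, and so had to be higher. HSF2, a heat shock transcription factor, rose from 0.779 and 1.36 RPKM to 8.71, 13.98 and 27.9 RPKM (2.98, SE 0.49), XBP1, of the unfolded protein response, from 0.593 and 1.82 RPKM to 6.72, 10.96 and 28.7 RPKM (2.72), and dnaja1, a co-chaperone, from 0.875 and 6.67 RPKM to 20.7, 28.4 and 33.2 RPKM (2.88). The 1 that fell was DNAJC2, a ribosome-bound co-chaperone (141 and 124 RPKM early and 75.1, 58.6 and 61.9 RPKM late, -1.02).

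Nuclear pore and transport genes had 22 of 51 tested members higher and 9 lower (11 and 23 after rescaling), with a median of 0.70. CSE1L, which exports importin alpha back to the cytoplasm, fell from 193 and 52.4 RPKM to 4.395, 4.97 and 5.83 RPKM (log2 difference -4.08, SE 0.51, limma adjusted p = 0.00412). Its cargoes moved apart, as kpna7, the importin alpha of eggs (678 and 582 RPKM early and 254, 239 and 239 RPKM late, -1.36) and KPNA2 (-1.87) fell while KPNA4 rose from 15.4 and 88.7 RPKM to 196, 206 and 184 RPKM (2.35). SEC13, of the pore's outer ring and of transport vesicles, rose from 1.26 and 10.2 RPKM to 49.7, 71.9 and 71.6 RPKM (3.68).

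Messages typical of the egg went both ways. The egg coat and egg activation list had 9 of 22 tested members higher and 2 lower (4 and 7 after rescaling), with a median of 0.71. The egg coat gene zp3d.1 rose from 3.02 and 12.4 RPKM to 29.9, 38.3 and 56.2 RPKM (log2 difference 2.49), and zp3a.2 fell from 84.2 and 74.2 RPKM to 53.6, 48.6 and 47.5 RPKM (-0.66), a call lost when any of the late libraries was left out. Egg coat genes are a multigene family, and the sources used here do not say how reads shared between such copies were counted. Of the maternal axis and maternal-effect factors, 4 of 18 tested members were higher and 5 lower (2 and 9 after rescaling), with a median of 0.14, and dvl2, of Wnt signalling, rose from 4.901 and 19.1 RPKM to 44.8, 51.5 and 50.3 RPKM (2.19). BTG4, an adaptor for deadenylation in eggs, fell from 648 and 158 RPKM to 106, 108 and 139 RPKM (-1.45, SE 0.51), but was not called without the 1-cell, the 64-cell or the 256-cell library. Cell adhesion genes had 1 of 12 tested members higher and 5 lower (1 and 9 after rescaling), with a median of -0.34. The 5 were the tight junction genes cldnd (5359 and 5518 RPKM early and 2083, 1403 and 1239 RPKM late, -1.82), cldng, oclna and cldn7b and the adhesion gene epcam (3809 and 2338 RPKM early and 1209, 1289.5 and 929 RPKM late, -1.40). PKP4, a protein of junction plaques, was the 1 higher, and it had passed the filter through late libraries alone.

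Genes of the first wave of embryonic transcription were barely present. Of 29 such genes in the table, 22 were below 1 RPKM in each of the 5 libraries and 2 passed the filter, of which ID1, a target of BMP signals, rose (0.0266 and 0.786 RPKM early and 4.97, 5.26 and 7.28 RPKM late, 2.32) and blf was not called. ID1 passed the filter through late libraries alone and so had to be higher. The summed level of the 29 genes was 11.4 and 13.8 RPKM in the early and 15.7, 21.3 and 24.2 RPKM in the late libraries. Markers of blood and muscle stood low in both periods, with a sum of 3.05 to 7.78 RPKM over 11 blood genes and of 0.501 to 1.24 RPKM over 6 muscle genes. Of the 14 testis somatic genes 12, and of the 12 follicle and ovary genes 9, were below 1 RPKM throughout, with sums of 39.2 to 57.3 RPKM for the first list. The follicle and ovary list summed to 260.1 and 192 RPKM in the early and 88.1, 103 and 104 RPKM in the late libraries. In the early libraries most of that sum was 1 gene with a shared symbol, which was called lower (224 and 155 RPKM early and 41.9, 43.6 and 39.3 RPKM late, log2 difference -2.14). Of the other 2 tested, hsd3b2, a steroid-synthesis enzyme gene, was called higher (0.406 and 0.827 RPKM early and 3.41, 7.09 and 11.7 RPKM late, 2.26), and CYP17A1 was not called. Hsd3b2 passed the filter through late libraries alone and so had to be higher. Of the 19 enveloping layer genes 13 were below 1 RPKM throughout, epcam, given above, was called lower, and the other 3 tested (the keratin genes krt5 and krt91, and icn) were not called. Krt5 had 0.204 and 18.7 RPKM early and 3.11, 13.7 and 6.95 RPKM late, and in all 3 the 4-cell library was the highest of the 5 and the 1-cell library the lowest. The 3 were called higher when the 4-cell library was left out (log2 differences of 2.70, 2.68 and 2.33), and their differences turned to -1.33, -1.46 and -1.12, not called, when the 1-cell library was left out. The part of other cells in the results was not tested.

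Gene length moved with the calls. The median length, as recovered from the RPKM values, was 2375 bases in the higher, 1765 in the lower and 2081 in the uncalled genes. From the shortest to the longest of 4 groups of equal size, 39.6%, 50.1%, 55.7% and 59.3% were higher and 20.03%, 14.4%, 10.8% and 8.63% lower. The median log2 difference went from 0.54 to 0.89, 1.04 and 1.16 over these groups, and from -0.40 to -0.02, 0.14 and 0.28 after rescaling. Ribosomal protein genes are short, and the part of length in their fall was not tested.

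Pairs of genes whose symbols differ in a final a or b were called in opposite directions in 15 of 168 cases. Zebrafish keep many gene copies from an ancient genome duplication, which are named this way, and the rule also takes paralogs of all vertebrates and a few unrelated subunits such as NDUFA2 and NDUFB2. Of 168 pairs with both genes tested, 47 were both higher, 9 both lower and 15 called in opposite directions, 77 had 1 gene called and 20 none. The opposite pairs were 8.93% of the 168, and over all possible pairs of tested genes that share was 13.8%. After rescaling the pairs in opposite directions numbered 23 (13.7%, against 18.8% over all pairs), and without the 1-cell library 7. Among the 78 pairs written in lower case, the zebrafish style, 7 were in opposite directions. In 6 pairs the opposite calls held on both scales. The widest was ppp1r9ala, at 0.455 and 1.19 RPKM early and 8.51, 12.1 and 13.8 RPKM late (log2 difference 2.78, SE 0.37), against ppp1r9alb, at 36.8 and 8.502 RPKM early and 2.89, 3.92 and 4.08 RPKM late (-2.04, SE 0.56). The poly(A) polymerase TENT4B rose from 0.153 and 1.05 RPKM to 9.098, 18.5 and 24.5 RPKM (3.48), while TENT4A fell from 248 and 239 RPKM to 173, 144 and 103 RPKM (-0.83), the latter not called without the 1-cell library. ATG4A, an autophagy protease, rose from 0.862 and 5.63 RPKM to 13.9, 14.1 and 15.9 RPKM (2.15) and ATG4B fell from 74.9 and 32.5 RPKM to 14.1, 11.3 and 11.01 RPKM (-1.95). PIP5K1A, a lipid kinase, rose from 9.52 and 19.6 RPKM to 54.6, 55.3 and 52.7 RPKM (1.91) and PIP5K1B fell from 29.5 and 21.3 RPKM to 9.53, 7.21 and 5.85 RPKM (-1.63). Of these genes, ppp1r9ala and TENT4B passed the filter on low values through late libraries alone and so had to be higher. Ppp1r9alb passed it through early libraries alone and so had to be lower. In these pairs the falling copy was the more abundant in the 1-cell library and the rising one the more abundant in the 256-cell library, except that TENT4A remained above TENT4B. Reads shared between near-identical copies could have been split, so the levels of such copies are uncertain.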

How the data were processed

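Total RNA was extracted with TRIzol, prepared with a TruSeq RNA v2 kit and read as single reads of 50 bp, per the labels' protocols. Kits of this name normally capture RNA by its poly(A) tail. The sources used here do not state it, and a change of tail length and of abundance could not be told apart after it. The authors deposited RPKM, in 1 table with a column per library, 10 in all. TopHat2 2.0.9 and the build Zv9 are named in the submitters' processing notes. Counter, annotation, strandedness and handling of multiply mapped reads: not given in the sources used here.

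Reads, gene lengths and library scaling were worked back from the RPKM values, which are whole multiples of what 1 read is worth (tolerance 0.001), for 26494 of 26495 genes above 0 in 2 or more libraries. This was tested on simulated data. Genes reaching 5 RPKM in 2 or more of the 5 libraries were tested on log2(RPKM + 1) with limma 3.58.1 (lmFit, eBayes with trend, 2 against 3 libraries, 3 residual degrees of freedom) in R 4.3.3, with calls at an adjusted p under 0.05 (Benjamini-Hochberg over all 8523). The fit was tested on simulated data too. A fold change on this scale understates the change of low genes. A count model was not used, since the unit is RPKM. Intervals for single values were not computed, and the spread between libraries is given as the SE of the fit.

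The members and the gene lists were chosen with earlier results of these data known, and lists were counted, not tested. Lists were matched by symbol through a name table that gave 20901 IDs a symbol, of which 3270 share one and are counted but not named. Some symbols are written in the human style. Genes were named by a rule: the 10 largest rises and falls, up to 4 of the largest called changes in each list and any called member where 5 or fewer were called in a direction, the 5 highest means, 5 pairs in opposite directions, the 5 highest and lowest moderated t and the 5 widest gaps between 1-cell and 4-cell. The 10 largest rises and falls were taken among called genes whose early and late values did not overlap. The others named in the text (ncl, FBL, AURKB, kif11, plk1, CENPI, ZWILCH, bub1, CCNB1, CCNB2, MCM5, GINS1, GINS3, ORC3, ORC1, CCNT1, POLR2D, pou5f3, nanog, CNOT1, CNOT8, PAN2, PAN3, DICER1, YTHDF2, YTHDF3, YTHDF1, VIRMA, DAZL, tdrkh, PIWIL1, PIWIL2, pld6, SNRPD2, hnrnpc, KPNA2, KPNA4, krt5, MAD2L1, bub1ba, TTK, MT-CYB, blf, rps6kal, krt91, icn and CYP17A1) were chosen after their values were seen. Alternatives were pseudocounts of 0.1 and 5, filters of 1 RPKM in 2 libraries, of 5 RPKM in all 5 and none, median ratio scaling, leaving out mitochondrial genes, limma without trend or with robust estimation, each library left out, and the 16-cell or 1000-cell library added to late cleavage.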

Additional observations from a re-analysis of the deposited data

How the results depend on the processing

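On RPKM with other settings, the number of genes called was 2341 with at least 5 RPKM in all 5 libraries and 9191 with no filter, against 5508. The higher genes then numbered 1325 and 8067, and 6755 with at least 1 RPKM in at least 2 libraries, against 4360. The counts fall and grow with the number of genes tested. Median ratio scaling gave 2570 higher and 2659 lower. Combined with leaving out the 1-cell library it gave 2132 higher and 2371 lower, and with leaving out the 4-cell library 3295 lower, alternatives chosen after seeing the data. Leaving out each library in turn gave 3203 to 5251 higher and 726 to 1390 lower genes, with the lowest of both without the 128-cell library, and the cause was not tested. Pairs called in opposite directions numbered 15, with 23 after median ratio scaling, 7 when the 1-cell library was left out and 7 among lower-case symbols alone. Relative to all genes, the medians of the histone methylation list (-0.0087) and the DNA methylation list (-0.15) moved above 0 without the 1-cell library (0.13 and 0.26), and the cause was not tested. Of 3628 recomputed differences of the 208 genes named, under 18 settings, 3500 kept direction and call, 92 lost a call (36 genes), 6 gained one (icn, krt5 and krt91) and 30 changed direction, in CYP17A1, icn, krt5, krt91, blf, rps6kal, lrmp, nanog and pou5f3. Lrmp (0.95) became -0.044 under median ratio scaling and -0.24 with the 1-cell library also left out, and pou5f3 (0.53) became -0.47, -0.30 and, with the 4-cell library left out, -0.65. Nanog (0.02) became -0.98, -0.99 and -0.99 under these 3 settings, -0.071 with the 1000-cell and -0.13 with the 16-cell library added, and -0.33 to 0.38 when single libraries were left out. Under the same 3 settings blf (0.081) became -0.80, -0.42 and -1.20, rps6kal (0.077) -0.90, -0.41 and -1.41, and CYP17A1 (0.44) -0.55, -0.20 and -0.90, and blf was -0.19 with the 16-cell library added. Single libraries left out gave -0.011 to 0.22 for blf, -0.076 to 0.23 for rps6kal, -1.12 to 2.33 for icn, -1.33 to 2.70 for krt5 and -1.46 to 2.68 for krt91, and median ratio scaling without the 1-cell library gave -1.72, -1.94 and -2.07 for the last 3. No paired analysis was possible because each label carries the same replicate number. The 1-cell library was the shallowest, and genes below 1 RPKM in it made up 27.6% of the higher genes.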

Other observations

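At the sphere stage, which was in neither period, 91.5% of the genes higher in late cleavage were still nearer to the late than to the early mean, and 372 of 4360 (8.53%) were nearer to the early mean. Over all tested genes, 83.8% were nearer to the late mean at sphere. The following were chosen after their values were seen, and no test was made with 1 library. TDRD6, of the germ plasm, went from 48.05, 60.7 and 64.5 RPKM in late cleavage to 8.61 RPKM at sphere. LSM1, which activates decapping of mRNA, went from 26.99, 41.6 and 59.9 RPKM to 14.8 RPKM, and RFC1, of the clamp loader of replication, from 18.9, 26.01 and 34.99 RPKM to 10.7 RPKM. In contrast, buc, also of the germ plasm, was at 78.2 RPKM and sox19b at 109 RPKM at sphere, below their late values and above their early ones.

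Of the lower genes, 97.3% lay nearer to the late mean at sphere. DNMT1 was at 82.6 RPKM at sphere, below its late cleavage values, and the cyclin CCNB2 at 373 RPKM. Ribosomal protein RPLP0 was at 48.1 RPKM there, within its late range, and MT-CO3 at 2203 RPKM, below it.

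In the 16-cell library, 52.1% of the higher genes lay beyond the late cleavage mean, as did 41.3% of the lower ones. The share was 50.9% in the uncalled genes and 50.2% over all tested genes, so that of the higher genes was near it.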
